A study of Solenopsis invicta with 52 samples.

Results

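In workers of the fire ant Solenopsis invicta, some genes were read at clear levels in the brains of some individuals and hardly at all in those of others. The genes described here were chosen by that pattern in 28 brain libraries, each from a single worker. A gene was taken as on in a library at 1 CPM or more (CPM, counts of a gene per 1000000 counts over all genes of the library), and as off under 0.1 CPM. A gene was kept if at least 4 brains were on, at least 4 were off, at most 5 lay in between, and at least 2 of the on brains came from SB/SB workers. One stretch of 1007 consecutive gene rows of the count tables was left out by the rule, and none of those rows met the same pattern. Of 16314 genes, 30 were kept. With any number of brains in between and no SB/SB minimum, 96 genes outside those rows had at least 4 brains on and 4 off. The brain values chose the genes and are therefore given as a description, while the gaster values of the same workers were not used in the choice.

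The study measured RNA in brains and in gasters, the rear part of the ant's abdomen, of minor workers that had been raised to adulthood in foster colonies. Group pBL held SB/Sb workers born in polygyne colonies (several egg-laying queens) and hosted in polygyne colonies. Group pBB held SB/SB workers with that same polygyne origin and polygyne host, while mpBB and mBB workers were SB/SB and born in monogyne colonies (a single queen), the mpBB workers being hosted in polygyne and the mBB workers in monogyne colonies. Each host had 250 workers, with 2 SB/Sb queens in a polygyne host and 1 SB/SB queen in a monogyne host, and workers were taken 16 days after transfer, when 14 to 16 days old and 0.6 to 0.9 mg in mass. The colonies came from 10 monogyne and 9 polygyne stock colonies, and within a treatment none of them gave or received pupae more than once. With fewer stock colonies of each origin than workers, workers of different groups shared stock colonies, and the labels do not tie a worker to its colony. Each group had 7 brains and 6 gasters, which come from 32 workers, and 20 workers (5 a group) gave both tissues.

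SB and Sb are alternative forms of a supergene, a block of linked genes that is inherited as a unit, and it sets whether a colony accepts a single queen or several. Workers that carry Sb live in polygyne colonies, whereas SB/SB workers live in both kinds. The brain and the gaster of a worker carry the same inherited genome but hold different cells, the gaster chiefly fat body and gut. No identifier in the files could be matched to a gene name, so no gene can be given a name or a function, and the tissue labels could not be checked against marker genes. Genes are called by the identifiers in the files.

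Gene counts, in units of 1000000, ran from 14.5 to 70.0 per brain library and from 30.006 to 77.316 per gaster library. The limit that a count of 0 allows, taken as 3 counts per library, equals 0.0428 to 0.2065 CPM in brain, so in the shallowest brains the off state lies under what the depth can resolve. Of the 280 off states in brain, 175 held no read at all, the highest held 4 reads, and the lowest on state held 19 reads. These limits cover counting error only. The brains of pBL replicate 2 and mBB replicate 4 stood apart from the others in their overall correlation, and without them the rule kept 29 genes, 28 of them among the 30. Brain libraries came from a low-input kit that does not mark strand, gaster libraries from a stranded kit, and reads that map to several places were not counted, so values are uncertain for genes that have near-identical copies and, in brain, for genes with an antisense partner. In whole tissues, fewer cells that express a gene and less RNA per cell cannot be told apart.

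In 1 worker the brain and the gaster went against their shared label. The libraries labelled pBB replicate 3 disagreed in state for 6 of the 15 listed genes that were clear in both tissues and that varied among gasters, whereas the other 19 workers had no disagreement in such genes. Outside the list, 161 genes had at least 3 workers at 1 CPM or more and 3 under it in each tissue. Over these genes this brain and gaster shared the state of 49.7%, and this brain shared 50.1% with gasters of other workers. In the other 19 workers the share with the own gaster was 55.3% to 72.05%, median 62.7%, and 47.5% to 54.8% over all 20 brains with the gasters of other workers. The own gaster was the best match in 13 of those 19 workers. The number of gasters that matched at least as well as the own, itself included, was 13 for pBB replicate 3 and 1 to 4 for the others. The reason was not tested, and the main results between tissues are given with and without it.

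The 30 genes spanned a wide range of levels. Each was on in 4 to 24 of the 28 brains (median 17.5), and a gene's median level among its on brains ran from 1.42 to 53.3 CPM, with a median over genes of 3.74 CPM. The spread among the on brains of a gene was 1.23-fold to 68.5-fold, with a median of 4.47-fold. Of the 840 gene and brain states, 497 were on, 280 were off and 63 lay between.

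**Figure D1:**
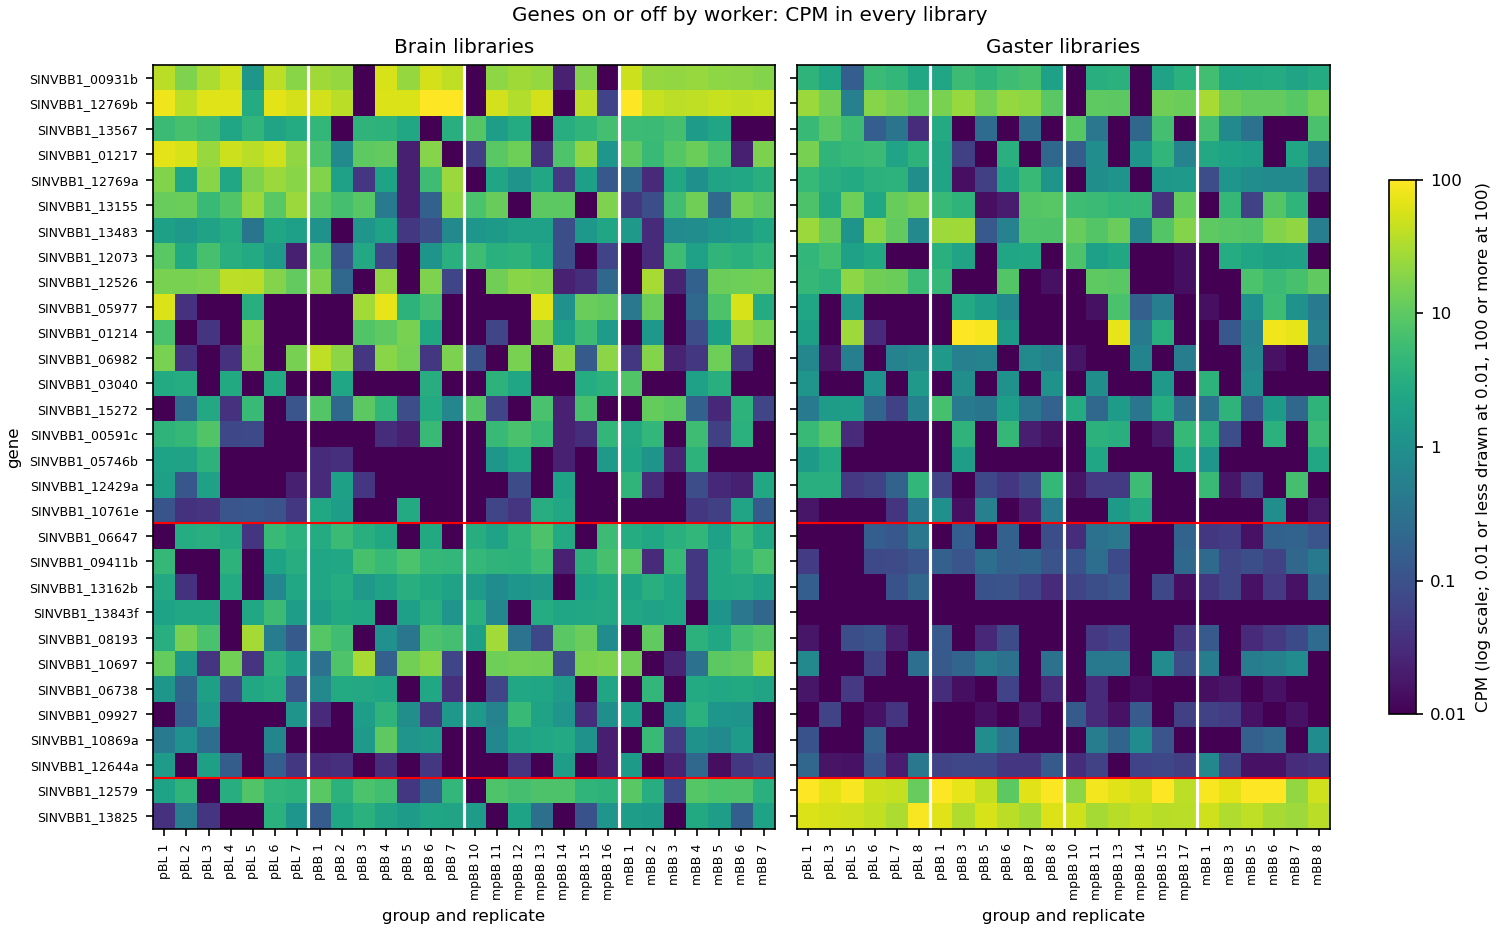
Level of each of the 30 genes (rows) in each brain library (left) and gaster library (right), in CPM on a logarithmic colour scale, with groups parted by white lines and named by group and replicate. Red lines part, from the top, the 18 genes that were on in some gasters and not in others, the 10 with no gaster on and the 2 with all 24 gasters on.

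The highest on levels belonged to SINVBB1_12769b and SINVBB1_00931b. SINVBB1_12769b ran from 2.90 to 80.6 CPM (median 64.8) in pBL brains, from 0 to 107.5 (median 59.0) in pBB brains, from 0 to 55.5 (median 34.3) in mpBB brains and from 40.5 to 105.5 (median 46.6) in mBB brains. It was on in all 7 pBL brains, 6 of 7 pBB, 4 of 7 mpBB and 7 of 7 mBB brains, and the 4 off brains held at most 0.0639 CPM. One on brain, pBL replicate 5 at 2.90 CPM, lay far below the others. SINVBB1_00931b, in the neighbouring row, was on and off in the same 28 brains, with 1.33 to 56.9 CPM in on brains and at most 0.0229 CPM in off brains. It too had its lowest on value, 1.33 CPM, in pBL replicate 5.

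SINVBB1_12526 split the brains into levels that lay far apart. Its pBL brains held 11.1 to 40.5 CPM (median 16.9) and were all on. In pBB brains, 3 held 16.6, 16.8 and 22.6 CPM, and 4 held 0 to 0.218 CPM. Both states were thus present among workers of that group, and likewise in the other SB/SB groups. In mpBB brains, 3 held 13.6, 17.2 and 19.5 CPM, and 4 held 0 to 0.213 CPM. In mBB brains, 4 held 12.8, 12.9, 14.2 and 29.7 CPM, and 3 held 0 to 0.175 CPM. No brain fell between 0.218 and 11.1 CPM.

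SINVBB1_06982 had a similar gap with another set of workers. It was on in 13 brains, at 13.3 to 41.1 CPM, and at most 0.136 CPM in the other 15. It was on in 3 pBL, 5 pBB, 3 mpBB and 2 mBB brains. Its on levels were close together apart from pBB replicate 1 at 41.1 CPM.

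At the edge of the rule stood SINVBB1_12644a, on in 4 brains, 2 of them SB/SB, at a median of 1.65 CPM and at most 1.85 CPM, and off in 21. Just outside it stood SINVBB1_09587, with 22 brains on at a median of 46.3 CPM and a highest level of 97.1 CPM, but with 3 brains off and 3 between. In all, 10 kept genes stood at a limit of the rule and 12 genes missed it by 1 library.

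The on states were spread over all 4 groups. Of 210 gene and brain states in each group, 126 (60.0%) were on in pBL, 120 (57.1%) in pBB, 122 (58.1%) in mpBB and 129 (61.4%) in mBB. Single pBL brains had 15 to 24 genes on (median 17), pBB brains 13 to 20 (median 18), mpBB brains 12 to 21 (median 17) and mBB brains 13 to 22 (median 19). The ranges of the groups overlap throughout. Of the 30 genes, 27 were on in at least 1 brain of every group, and in 27 genes the group with most brains on and the group with fewest differed by at most 3 of 7 brains. The 3 genes missing from a group were SINVBB1_10761e, on in 0 pBL, 3 pBB, 2 mpBB and 1 mBB brains, SINVBB1_12644a, on in 2 pBL, 0 pBB, 1 mpBB and 1 mBB brains, and SINVBB1_05746b, on in 3 pBL, 0 pBB, 3 mpBB and 3 mBB brains. All 7 brains were on for 7 genes in pBL, 2 in pBB, 0 in mpBB and 3 in mBB.

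**Figure D2:**
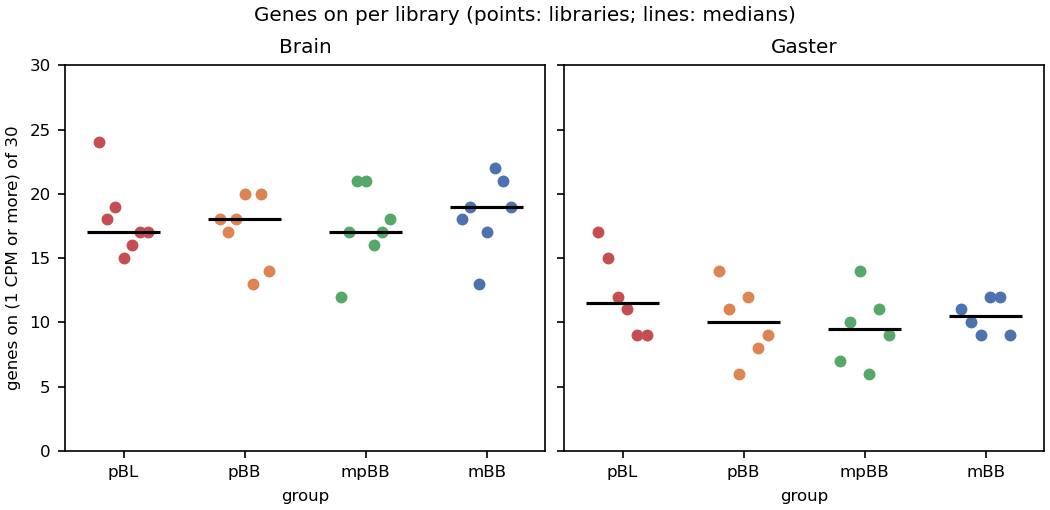
Number of the 30 genes that were on, at 1 CPM or more, in each brain library (left) and each gaster library (right), by group. Points are libraries and lines are group medians; brains had 12 to 24 genes on and gasters 6 to 17, and the groups overlap in both tissues.

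Levels were then tested between groups with edgeR's quasi-likelihood test over all genes, with Benjamini-Hochberg adjustment. For genotype, pBL against pBB in brain, 62 of 12006 genes were called at an adjusted p of 0.05, which is 0.516%, and 0 of the 27 listed genes that passed the filter on low counts were called. At an unadjusted p under 0.05 there were 2 listed genes, SINVBB1_05746b and SINVBB1_01217, against 3.54% of all genes, and DESeq2, which called 0.716% of all genes, also called 0 listed genes. Since the rule set a minimum of on brains among SB/SB workers, nothing is read from this brain contrast. In gaster, which the rule did not use, 69 of 11574 genes (0.596%) were called for genotype and 0 of the 24 listed genes that passed the filter, with 2 listed genes, SINVBB1_01217 and SINVBB1_09411b, at an unadjusted p under 0.05, against 5.24% of all genes. DESeq2 called 0.933% of all genes there and again 0 listed genes.

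The listed genes had broad errors in these fits. Their log2 fold changes of pBL over pBB in gaster had a median standard error of 1.19, against 0.185 over all genes, and were above 0 in 14 genes and below 0 in 10. Their median was 0.15 on the log2 scale, against -0.00116 over all genes. In brain, where the rule itself chose genes with low and high libraries, the median standard error was 1.03, against 0.166, with 13 genes above 0, 14 below and a median of -0.13, against 0.02 over all genes. A log2 difference of 1 is smaller than either of these median standard errors.

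SINVBB1_01217 is named because its pBL brains overlapped neither its pBB nor its mBB brains. How often this occurs over all genes was not counted, so it is not read as particular to this gene. It ran from 21.4 to 67.6 CPM (median 50.2) in pBL brains, from 0 to 18.5 (median 7.58) in pBB, from 0.0368 to 22.0 (median 7.94) in mpBB and from 0.0224 to 16.0 (median 8.81) in mBB brains. All pBL brains lay above all pBB and mBB brains, and the pBL and mpBB ranges overlapped at their ends. In edgeR its log2 fold change of pBL over pBB was 2.77 (standard error 0.955, adjusted p = 0.602) in brain and 2.64 (standard error 1.18, adjusted p = 0.893) in gaster, with 7 of 7 pBL brains above every pBB brain. In gaster it ran from 2.13 to 15.2 CPM (median 4.50) in pBL and from 0 to 3.45 (median 0.136) in pBB, from 0 to 4.29 (median 0.756) in mpBB and from 0 to 2.56 (median 1.95) in mBB. There the groups overlap. It was chosen after its values were seen, and neither difference passed the adjusted test.

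Among the SB/SB groups, which differ in origin or in host, edgeR's joint test of pBB and mpBB against mBB called 1 of 12006 genes in brain (0.00833%) and 0 of the 27 listed genes. At an unadjusted p under 0.05 it held 2 listed genes, SINVBB1_12769a and SINVBB1_05746b, against 2.62% of all genes, and DESeq2 called 0.0333% of all genes and 0 listed genes. The rule used these brain values too, so nothing is read from the brain count. In gaster edgeR called 0 of 11574 genes (0.0%) and DESeq2 102 (0.881%), and both called 0 of the 24 listed genes. At an unadjusted p under 0.05 edgeR held 0 listed genes, against 960 of all genes (8.29%).

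The likeness of brains within and between groups had the same median. Over the genes with a clear state in both brains of a pair, the share in the same state had a median of 60.7% over the 84 pairs within a group (30.8% to 88.0%) and of 60.7% over the 294 pairs between groups (22.2% to 96.4%). The most alike pair was mpBB replicate 13 and mBB replicate 6, both of monogyne origin, with 27 of 28 clear states the same. Next came pBL replicate 2 with mpBB replicate 11 (21 of 22) and with mBB replicate 4 (19 of 20), which differ in genotype and origin. No pair of brains had identical states throughout. Replicate numbers are shared by pBL, pBB and mBB, of which mBB was not compared by number. Same-numbered pBL and pBB brains shared 61.0% of states (7 pairs), against 59.9% in pairs with different numbers (42 pairs). In gaster, over the 18 listed genes that varied there, same-numbered pairs shared 68.3% of states (53.3% to 91.7%, 6 pairs), against 59.3% in the others (23.1% to 83.3%, 30 pairs), and these ranges overlap.

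The gasters of the same workers show how far the brain state extended to another tissue. Of 720 gene and gaster states, 253 (35.1%) were on, against 59.2% in brain, with 334 off and 133 between. A lower share in gaster is favoured by the rule, which required on states in brain only. By group, 73 (40.6%) were on in pBL gasters, 60 (33.3%) in pBB, 57 (31.7%) in mpBB and 63 (35.0%) in mBB. Single pBL gasters had 9 to 17 genes on, pBB gasters 6 to 14, mpBB gasters 6 to 14 and mBB gasters 9 to 12, and these ranges overlap. The genes fell into 3 classes in gaster, with 18 on in some gasters and not in others, 10 on in no gaster and 2 on in all 24.

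Over all 30 genes, brain and gaster of the same worker agreed in 373 of 468 states that were clear in both tissues, which is 79.7%, with an SD of 8.55 over the 20 workers. Set against the gasters of other workers, the brains agreed in 52.6% of 8880 clear states. Without pBB replicate 3 the shares were 81.1% with the own gaster and 52.7% with other gasters. The states that did not match were mainly one way, with 81 on in brain and off in gaster and 14 off in brain and on in gaster. The rule required on brains and set nothing for gasters, so this direction is favoured by the choice and is not read as a trait of the tissues.

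In the 18 genes that varied among gasters, the match of clear states was nearly complete. These genes were picked by their gaster values. That leaves out the genes with no gaster or every gaster on, where most mismatches lay, and states between the thresholds were not counted. The high share rests in part on this choice. Brain and gaster of the same worker agreed in 291 of 297 clear states (98.0%), against 59.8% with the gasters of other workers. All 6 disagreements lay in pBB replicate 3, where 9 of 15 agreed (60.0%, and 60.8% with other gasters). Without that worker, all 282 clear states agreed, against 60.0% with other gasters. Of 652 pairs of a brain and a gaster from different workers, 7 also had no disagreement, and the median pair had 6 and the most different pair 14.

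**Figure D3:**
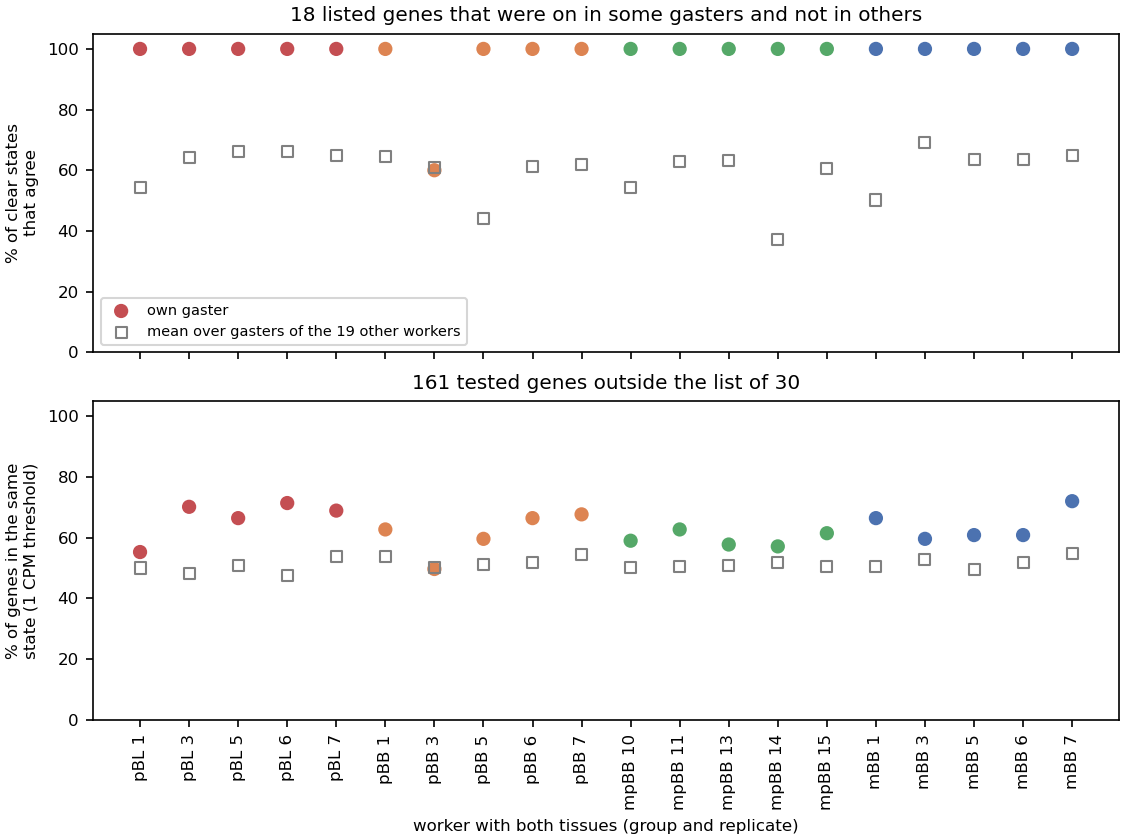
Share of genes in the same state in the brain and the gaster, in percent, for each of the 20 workers with both tissues, with filled circles for the own gaster and open squares for the mean over the gasters of the 19 other workers. The upper panel holds the 18 listed genes that varied among gasters, where 19 workers stand at 100% and pBB replicate 3 at 60.0%; the lower panel holds 161 genes outside the list.

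Whether a gene's brain state and gaster state go together over workers was tested gene by gene with a two-sided Fisher's exact test over the 20 workers, with 1 CPM as the border in both tissues. The test takes the workers as independent, although workers of different groups share stock colonies, so its p-values may be too small. It ran on all 178 genes with at least 3 workers on each side in each tissue. Of these, 45 were called at an adjusted p of 0.05 (25.3%), all toward the same state in both tissues. Of the 30 listed genes, 17 could be tested and 13 were called. The other 13 had fewer than 3 workers on one side of 1 CPM in brain or in gaster. The rule chose listed genes for clear brain states, which favours a call, whereas the 178 needed only 3 workers on each side. The 178 also include the 17 listed genes. The share called among listed genes is therefore not read as an excess over all genes tested. Without pBB replicate 3, 12 of 15 were called, against 28.7% of all genes tested, and SINVBB1_12769a lost its call (adjusted p = 0.0581 by the exact test). With the 15 SB/SB workers alone, 8 of 14 were called, against 17.7% of all genes tested.

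The smallest adjusted p belonged to SINVBB1_12526. Where the brain was on, in 12 workers at 11.1 to 38.9 CPM, the gaster held 3.85 to 21.1 CPM (median 7.91). Where the brain was off, in 8 workers, the gaster held 0 reads in every one. The ranges do not overlap in either tissue, and the exact test over the 20 workers gave an adjusted p of 0.000471, and 0.000542 without pBB replicate 3. By group its gasters ran from 3.85 to 21.1 CPM (6 of 6 on) in pBL, from 0 to 8.45 (2 of 6 on) in pBB, from 0 to 10.2 (2 of 6 on) in mpBB and from 0 to 10.6 (4 of 6 on) in mBB. Among the 15 SB/SB workers alone its adjusted p was 0.00753 by the exact test, and over the alternatives tried it stayed between 0.000471 and 0.00753.

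SINVBB1_12073 and SINVBB1_13155 each had 15 workers on in both tissues and 5 below 1 CPM in both, and SINVBB1_12429a had 5 on and 15 below. All 3 had an adjusted p of 0.00104 by Fisher's exact test, and 0.00094 without pBB replicate 3. SINVBB1_12073 held 1.80 to 7.68 CPM in the gasters of the 15 workers with the brain on, and 0 reads in the gasters of the 5 workers with the brain off. SINVBB1_13155 held 2.52 to 13.1 CPM in gaster where the brain was on, and at most 0.0619 CPM in the 5 other workers. In the last of the 3, SINVBB1_12429a, the gaster values were 3.31 to 6.50 CPM beside on brains of 1.90 to 4.14 CPM, and at most 0.185 CPM beside off brains. In none of the 3 did the levels of the gasters overlap between the brain states.

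SINVBB1_00591c and SINVBB1_05746b lie 5 rows apart and matched in 25 of 28 brains. SINVBB1_00591c held 3.21 to 8.68 CPM in the gasters of the 7 workers with the brain on, and at most 0.0867 CPM in 12 of the 13 others. The 13th is pBB replicate 3, with 0 CPM in brain and 4.06 CPM in gaster. SINVBB1_05746b held 1.26 to 2.84 CPM in the gasters of 4 workers with the brain on, and 0 reads in 15 of 16 others, the exception again being pBB replicate 3 with 1.70 CPM. Their adjusted p was 0.00141 and 0.00707 by the exact test over all 20 workers, and both became smaller without that worker, at 0.000542 and 0.00223.

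**Figure D4:**
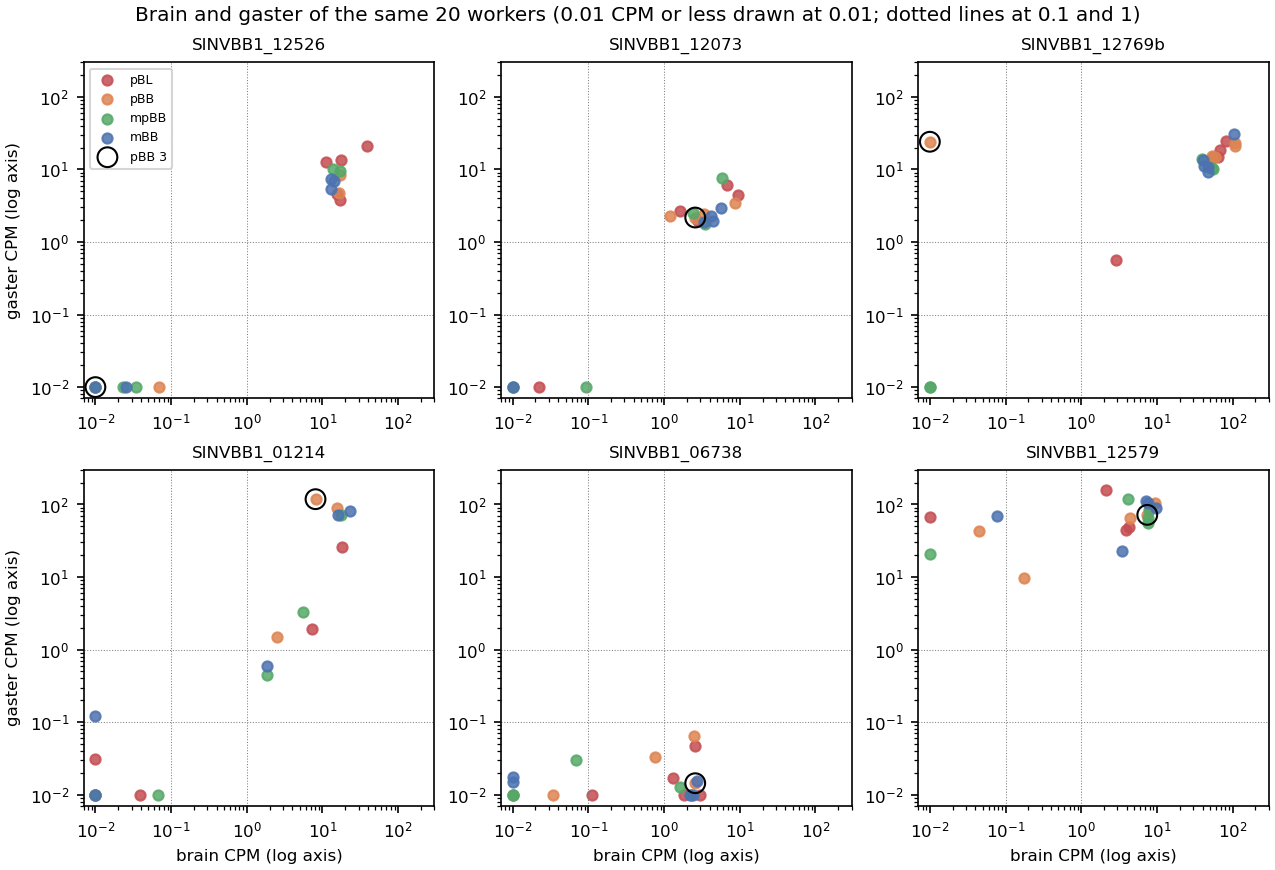
Level in brain (horizontal) and gaster (vertical) of the same 20 workers for 6 genes, in CPM on logarithmic axes, coloured by group, with dotted lines at 0.1 and 1 CPM, values of 0.01 CPM or less drawn at 0.01, and pBB replicate 3 circled. In SINVBB1_12526 and SINVBB1_12073 the workers form a low and a high cluster in both tissues. In SINVBB1_06738 they differ in brain, while on the gaster strand drawn all lie under 0.1 CPM. Most gaster reads of that gene lay on the opposite strand, and brain counts do not separate strands. SINVBB1_12579 was at 9.66 CPM or more in every gaster.

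SINVBB1_12769b and SINVBB1_00931b, the genes with the highest levels in brain, were also on in most gasters. SINVBB1_12769b ran from 0.556 to 24.7 CPM (median 14.9) in pBL gasters, from 9.46 to 24.1 (median 18.3) in pBB, from 0 to 13.8 (median 10.2) in mpBB and from 9.12 to 30.4 (median 12.3) in mBB. The worker with the low on brain, pBL replicate 5, also had the lowest gaster value above 0, at 0.556 CPM for SINVBB1_12769b and 0.154 CPM for SINVBB1_00931b. The gasters of mpBB replicates 10 and 14 held 0 reads of both genes, as their brains were off. In pBB replicate 3 the brain held 0 reads of both and the gaster 24.1 and 5.57 CPM. With so few off workers the exact test gave an adjusted p of 0.135 for each over the 20 workers, which does not pass, and without pBB replicate 3 too few workers were off for a test.

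SINVBB1_05977 and SINVBB1_01214, in adjacent rows, had the same state in all 26 brains where both were clear. In brain SINVBB1_05977 reached 61.5 CPM in pBL replicate 1, 72.3 in pBB replicate 4, 64.0 in mpBB replicate 13 and 56.3 in mBB replicate 6, each the highest of its group. The on brains of SINVBB1_01214 held 1.35 to 23.3 CPM, and its highest values were 18.04 CPM in pBL replicate 5, 15.65 in pBB replicate 5, 17.6 in mpBB replicate 13 and 23.3 in mBB replicate 6. The same worker was thus highest for both genes in mpBB and mBB brains, and different workers were in pBL and pBB brains. In gaster the same worker was highest for both in pBB (replicate 3), mpBB (replicate 13) and mBB (replicate 6), and different workers were in pBL. In gaster SINVBB1_01214 held 0.453 to 118.2 CPM (median 25.7) in the 11 workers with the brain on, 0.453 to 89.2 CPM (median 14.5) without pBB replicate 3, and at most 0.121 CPM in the 9 with the brain off. Its on gasters fell far apart, with 118.2 CPM in pBB replicate 3 and 89.2 in pBB replicate 5, against 1.50 in pBB replicate 6. No gaster beside an off brain reached the lowest value beside an on brain. SINVBB1_05977 held 0.168 to 7.16 CPM in gaster beside on brains and at most 0.0152 CPM beside the 8 off brains. The adjusted p over 20 workers was 0.00723 for SINVBB1_05977 and 0.00344 for SINVBB1_01214 by the exact test, and 0.0134 and 0.00488 without pBB replicate 3. Among the 15 SB/SB workers the call of SINVBB1_05977 was lost, at 0.105 by the exact test.

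SINVBB1_06982 showed the same order at low gaster levels. Its gasters held 0.525 to 1.47 CPM in the 8 workers with the brain on, and at most 0.0163 CPM in 9 of the 10 with the brain off, the exception being pBB replicate 3 with 0.561 CPM. At a border of 1 CPM only 1 gaster was on and no test was possible. At 0.5 CPM in both tissues the exact test over the 20 workers gave an adjusted p of 0.00144.

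The 10 genes with no gaster on make up most of the states that were on in brain and off in gaster, with 79 of 81. Only 2 of these 10 were under 0.1 CPM in all 24 gasters. SINVBB1_13843f held no read in any gaster, whereas in brain it was at 1.17 to 5.49 CPM in 21 brains. It was on in 6 of 7 pBL, 6 of 7 pBB, 5 of 7 mpBB and 4 of 7 mBB brains. Its 4 off brains held 0 reads each, and they were 1 per group, pBL replicate 4, pBB replicate 4, mpBB replicate 12 and mBB replicate 4. None of these 4 workers gave a gaster. SINVBB1_06738 was on in 17 brains at 1.32 to 4.44 CPM and held at most 0.0636 CPM in gaster on the annotated strand.

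Below 1 CPM these 10 genes differed in where their few gaster reads lay. SINVBB1_06647, SINVBB1_10697, SINVBB1_10869a, SINVBB1_13162b and SINVBB1_09411b are grouped here because they had 0 gaster reads in all 25 gene and worker combinations with the brain off. With the brain on, 59 of their 67 combinations had at least 1 gaster read (88.1%). In 4 other genes gaster reads lay beside off brains too. SINVBB1_12644a had them in 14 of 15 workers with the brain off and 4 of 4 with the brain on, SINVBB1_06738 in 3 of 7 off and 6 of 11 on, SINVBB1_08193 in 2 of 4 off and 8 of 13 on, and SINVBB1_09927 in 2 of 7 off and 9 of 11 on. SINVBB1_10697, for instance, held up to 0.842 CPM (median 0.488) in the gasters of 13 workers with the brain on, and 0 reads in the 6 with the brain off. These are reads near the limit of detection, and no test was made.

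For 3 of the 10 genes most gaster reads lay on the strand opposite to the annotated one, with 98.0% for SINVBB1_06738, 76.6% for SINVBB1_09927 and 100% for SINVBB1_13843f. Over all 30 genes the median was 0.809%, against 1.38% over all genes. For SINVBB1_09927 the opposite-strand reads followed the brain state: they numbered 0 in each of the 7 workers with the brain off and were above 0 in 10 of the 11 workers with the brain on. Its brain count, which does not separate strands, can therefore hold reads from that strand. For SINVBB1_06738 opposite-strand reads were present beside off brains too, with 13 to 114 reads in 7 workers, against 1 to 78 reads beside the 11 on brains. For SINVBB1_13843f the share rests on at most 3 reads in 1 gaster.

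The opposite case was seen in 2 genes that were on in every gaster. SINVBB1_12579 ran from 11.9 to 159.9 CPM (median 58.3) in pBL gasters, from 9.66 to 104.3 (median 68.5) in pBB, from 20.5 to 120.3 (median 60.7) in mpBB and from 22.8 to 112.3 (median 79.7) in mBB. In brain it was off in 4 workers, pBL replicate 3, pBB replicate 5, mpBB replicate 10 and mBB replicate 3, whose gasters held 20.5 to 69.4 CPM. Those gasters lay inside the range of 22.8 to 159.9 CPM of the 15 workers with the brain on, apart from the lowest. Their median was 55.1 CPM, against 84.7 CPM beside on brains. Beside the brain in between, pBB replicate 6, the gaster held 9.66 CPM. This difference in gaster level was not tested. SINVBB1_13825 held 26.1 to 91.6 CPM in gasters. Its brains were on in 2 of 7 pBL, 6 of 7 pBB, 3 of 7 mpBB and 5 of 7 mBB workers, at 1.21 to 3.64 CPM. The gasters of the 10 workers with the brain on held 26.1 to 56.4 CPM (median 39.85). Those of the 6 with the brain off held 29.1 to 62.1 CPM (median 46.7), and these ranges overlap. For both genes the brain level was a small part of the gaster level.

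Some of the 30 genes had a near partner in the list. Of the 435 pairs of genes, the median pair had the same state in 53.6% of brains clear for both, and 6 pairs had over 90%. These are SINVBB1_00931b with SINVBB1_12769b (28 of 28 brains, adjacent rows), SINVBB1_05977 with SINVBB1_01214 (26 of 26, adjacent), SINVBB1_13162b with SINVBB1_09411b (25 of 26, 607 rows apart), SINVBB1_12429a with SINVBB1_12644a (22 of 24, 2 rows apart), and SINVBB1_12769a with SINVBB1_00931b and with SINVBB1_12769b (24 of 26 each). The pairing recurs by identifier. SINVBB1_12769a and SINVBB1_00931a fill neighbouring rows 12374 and 12375, as SINVBB1_12769b and SINVBB1_00931b fill rows 1080 and 1079. SINVBB1_00931a missed the list by 1 library, with 21 brains on, 3 off and 4 between.

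Identifiers with a letter after the number were frequent. They were 12 of the 30 (40.0%), against 9.52% of all 16314 genes and 1.75% of the 10455 genes with a mean of at least 1 CPM in brain, and each of the 12 shared its number with another identifier. The files do not say what the letter means. Rows after 13000 held 17 of the 30 genes (56.7%), against 20.3% of all genes and 10.3% of genes with a mean of at least 1 CPM. The genes within 2 rows of a listed gene were often low: 31 of 109 (28.4%) were on in all 28 brains, against 57.6% of all genes, and 55 were on in none. Of these neighbours, 3 (2.75%) had at least 4 brains on and 4 off, against 0.6252% of all genes. The shares over all genes were not matched for row, so neither difference is read as a trait of the listed genes' surroundings. What the row order stands for is not given in the sources used here, so no position in the genome is drawn from it.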

How the data were processed

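RNA was measured in 28 brains and 24 gasters of single workers. The deposited files give raw counts of reads per gene in 3 columns (unstranded and each strand), and per the submitters' processing notes the authors used Trim Galore, STAR and edgeR; for versions, genome build and annotation, nothing is given in the sources used here. Per the labels' protocols, brain libraries came from a low-input SMARTer kit without strand and gaster libraries from a KAPA stranded kit, so the unstranded column was used for brain and the reverse-strand column, which held 96.1% to 97.1% of strand counts, for gaster. The 4 rows without a gene held 58.4% to 74.7% of the reads of a brain and 37.6% to 70.8% of those of a gaster. They stayed out of CPM and tests.

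Members, lists and the rule for named genes were chosen with earlier results of these data known. That rule took genes by highest on level and by match and mismatch between tissues. It also took them by smallest adjusted p among called genes, by adjacent rows and at the edge of the selection. Genes named outside it were chosen after their values were seen, whether or not this is said beside them. Planned marker and gene lists were not used, since no identifier had a name. Group tests used R 4.3.3 with edgeR 4.0.16: filter by expression, TMM scaling, all 4 groups of a tissue in 1 quasi-likelihood fit, and Benjamini-Hochberg adjustment over all genes at 0.05. DESeq2 1.42.0 was an alternative. The tests were checked on simulated counts. Fisher's exact tests used scipy 1.17.1 in Python 3.11.15. The p-values measure the spread between workers, some of which share a stock colony across groups.

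Replicate numbers are shared by pBL, pBB and mBB, of which only pBL and pBB were compared by number. In brain, deviations from the group mean correlated at 0.143 to 0.497 in each of the 7 same-numbered pairs, with a mean of 0.337, whereas pairs with different numbers had a mean of -0.0557. In gaster the means were 0.319 and -0.0631. Pairs with different numbers reached 0.2342 in brain and 0.2123 in gaster, above the lowest same-numbered pairs, at 0.1434 and 0.0928. Same-numbered samples were thus more alike on average, with overlapping ranges. What a number marks is not in the labels, and the reason for the likeness was not tested.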

Additional observations from a re-analysis of the deposited data

Results flagged for a closer look

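In 31 of 148 groups of libraries or workers tested, 1 value stood apart from the rest of its group by Dixon's criterion, which chance meets in about 1 in 20 groups. Of the 31, 29 were levels of listed genes. The rule chose these genes for both high and low brain values, and a gene on in a single library readily meets this criterion. The number flagged is therefore not read as an excess over chance. For the agreement between brain and gaster, pBB replicate 3 stood apart within pBB, at 54.2% over all listed genes and 60.0% over the 18 that varied among gasters.

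Single libraries stood apart for several genes that were otherwise low in the group. SINVBB1_00591c was at 5.12 CPM in 1 pBB brain. SINVBB1_05746b was at 1.70 CPM in 1 pBB gaster, that of replicate 3. SINVBB1_12429a was at 1.89 CPM in 1 pBB brain, 2.07 CPM in 1 mpBB brain, 4.53 CPM in 1 pBB gaster and 5.65 CPM in 1 mpBB gaster. SINVBB1_12644a was at 1.72 CPM in 1 mpBB brain and 1.50 CPM in 1 mBB brain, and, without reaching the on state, at 0.137 CPM in 1 pBB gaster and 0.739 CPM in 1 mBB gaster.

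Other genes had 1 library far above libraries that were also on or low. SINVBB1_05977 reached 61.5 CPM in a pBL brain, 72.3 CPM in a pBB brain, 64.0 CPM in an mpBB brain and 56.3 CPM in an mBB brain, and 7.16 CPM in an mpBB gaster and 5.72 CPM in an mBB gaster. SINVBB1_01214 reached 18.04 CPM in pBL and 17.6 CPM in mpBB brains, and 25.7 CPM in pBL and 72.1 CPM in mpBB gasters. In mBB replicate 1, both tissues stood apart for the adjacent pair, with 105.5 CPM in brain and 30.4 CPM in gaster for SINVBB1_12769b, and 49.5 CPM in brain and 6.19 CPM in gaster for SINVBB1_00931b. SINVBB1_12073 reached 8.64 CPM in pBB brains and 7.68 CPM in mpBB gasters. The remaining values were 3.64 CPM of SINVBB1_13825 in pBL brains, 0.0463 CPM of SINVBB1_06738 in pBL gasters and 0.712 CPM of SINVBB1_06982 in mBB gasters.

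The gaster strand column that entered no comparison held up to 1.69 CPM of SINVBB1_06738 and up to 0.430 CPM of SINVBB1_09927, above the highest values in the column used, 0.0636 CPM and 0.142 CPM.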

How the results depend on the processing

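The number of genes kept by the rule was 30 and depended on its thresholds. It was 18 with the on state set at 2 CPM and 9 with no brain allowed in between, and 23 to 33 under the other 4 alternatives. The share of agreeing states between tissues ran from 78.2% to 82.1% over 5 alternatives, one of which, leaving out pBB replicate 3, was chosen after seeing the data. Of the listed genes, Fisher's exact test called 13 of 17, against 25.3% of all genes tested. With unstranded gaster counts it called 13 of 18 (all genes 23.4%), and at 0.5 CPM in both tissues 14 of 17 (21.2%). Without pBB replicate 3 it called 12 of 15 (28.7%). With the 15 SB/SB workers alone it called 8 of 14 (17.7%), with fewer workers and fewer listed genes to test. No excess over all genes is read from these counts. In the group tests, 0 listed genes were called under every alternative run in either tissue. These included DESeq2, RLE factors, no filter, covariates, other strand column and libraries left out. The rule used the brain values, so nothing is read from the brain counts. Over all genes in gaster, edgeR called 0.596% for genotype and 0.0% among the SB/SB groups, and DESeq2 0.933% and 0.881%. At such shares the gaster counts are not read as a result about the listed genes. With the replicate number as a block in the pBL and pBB fits, 67 genes were called in brain and 63 in gaster. Among listed genes, 0 of 21 and 0 of 15 were called there. The share over all genes in these fits is not given here, so nothing about the listed genes is read from this. Of the genes taken by the naming rule, SINVBB1_05977 lost its call with SB/SB workers alone (adjusted p = 0.105, exact test), and SINVBB1_12769a, named outside it, lost its call there (0.151) and without pBB replicate 3. Depth limits the off state, since 0.1 CPM is under 3 counts in most brains, and gaster values under 0.1 CPM are near the limit of the gaster libraries.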

Other observations

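The 4 gasters without a brain library were pBL replicate 8, pBB replicate 8, mpBB replicate 17 and mBB replicate 8. SINVBB1_12526 was on in the gasters of pBL replicate 8 at 5.27 CPM and mBB replicate 8 at 10.6 CPM, and held 0.0153 CPM in pBB replicate 8 and 0.0142 CPM in mpBB replicate 17. For SINVBB1_12073 these 4 gasters held 0, 0, 0.0142 and 0 CPM, in the same order. SINVBB1_12526 thus lay in separate low and high levels in these gasters too, and SINVBB1_12073 was off in all 4.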
